A study of Mus musculus with 8 samples.

Results

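Aminoacyl-tRNA synthetases, the enzymes that load each amino acid onto its tRNA, were followed in donor CD4+ T cells responding to alloantigen. The members were the entries of the table under 36 gene symbols, 20 for enzymes of the cytosol and 16 for enzymes of the mitochondrion, whose symbols end in 2. All 36 were among the 12417 entries. RNA-Seq was performed on d5 after allogeneic hematopoietic cell transplantation (alloHCT), and the comparison asks what donor T cells express when they cannot receive IL-33 through its receptor ST2. ST2fl/fl donor cells were CD45.2+ cells of B6 CD4-Cre x R26-LSL-YFP x St2fl/fl mice, in which Cre driven by the Cd4 promoter deletes the floxed sequence of the ST2 gene in T cells and turns on YFP. ST2WT donor cells were CD45.1+ cells of B6 St2+/+ mice. Mice were 6 to 10 weeks old. Both populations were transferred together into lethally irradiated BALB/c recipients and sorted from the spleen, so that the 4 recipients gave 4 ST2fl/fl and 4 ST2WT libraries, and libraries of the same number were taken to share a recipient. The groups also differed in Cre, the YFP reporter and the CD45 allele, which cannot be told apart from the loss of ST2 in these libraries.

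Each synthetase recognizes its amino acid and the tRNAs that carry it, and the loaded tRNAs are the substrate of the ribosome. Cytosolic synthetases serve translation of nuclear genes, and a separate set, made in the cytosol and imported, serves the small number of proteins that mitochondria make themselves. The enzymes fall into class I and class II, which have unrelated catalytic folds. Several cytosolic enzymes sit in a multisynthetase complex held together by the scaffold proteins Aimp1, Aimp2 and Eef1e1. T cells that enter the cell cycle raise protein synthesis and amino acid uptake, and the transcription factor Atf4 is known to induce many cytosolic synthetase genes when amino acids run short.

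Values are TPM, each gene's share of the transcripts of a library after correction for gene length, so levels can be set side by side between genes. Depth cannot be read from TPM. The targeted gene, Il1rl1, was at 14.9 to 17.7 TPM in ST2fl/fl libraries and at 14.6 to 21.3 TPM in ST2WT libraries. How much of the gene the floxed allele removes is not given in the sources used here, so its whole-gene level checks no label. All 11 T cell markers looked for were in the table (summed TPM 15918 to 16060 in ST2fl/fl, 13696 to 14704 in ST2WT). Of markers of other cells, 3 of 6 for B cells were in the table, at a sum of 192 to 263 TPM in ST2fl/fl and 283 to 294 TPM in ST2WT, as were 3 of 7 for myeloid cells, at 41.9 to 59.8 TPM in ST2fl/fl and 29.9 to 44.9 TPM in ST2WT. Cd8b1, 1 of 2 CD8 markers, was at 10.5 to 14.2 TPM in ST2fl/fl and 12.4 to 13.5 TPM in ST2WT, and 2 of 4 natural killer cell markers summed to 1.34 to 4.07 TPM in ST2fl/fl and 4.11 to 6.41 TPM in ST2WT. Of erythroid markers 2 of 6 and of dendritic cell markers 2 of 4 were in the table, at sums of at most 6.24 TPM in any library. The defining markers Ms4a1, Csf1r, Itgam and Cd8a have no entry, and the table lists only genes above 0 in every library. The T cell sum was higher in every ST2fl/fl library than in any ST2WT library, and the B cell and natural killer cell sums were lower. The part of these differences in the results was not tested. In bulk RNA, fewer cells of a type and less RNA per cell cannot be told apart.

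The ST2WT library of recipient 2 stood apart. Over all tested genes its values deviated from the mean of the other libraries of its genotype with an SD of 0.465 on the log2 scale. The same SD was 0.242 to 0.279 in the other 7 libraries, where the means used for ST2WT libraries include it. Transcripts encoded by the mitochondrial genome made up 9.18% of its TPM, against 12.7% to 13.8% in the others. Where leaving it out moved a fold change of a synthetase by over 1.5 times, the value without it is also given. Those values keep the ST2fl/fl library of recipient 2.

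The levels of synthetase transcripts spread widely. The cytosolic enzymes had a median level of 25.6 TPM over genes, from 6.33 TPM for Cars to 114 TPM for Nars, and the mitochondrial enzymes a median of 5.31 TPM, from 0.936 TPM for Vars2 to 106 TPM for Lars2. Nars, Lars2, Kars, Hars and Gars led the order, at means over the 8 libraries of 114, 106, 99.2, 72.8 and 65.0 TPM. Lars2, which charges the mitochondrial leucine tRNA, was the only mitochondrial enzyme in this range. The next mitochondrial enzymes were Rars2 at 21.7 TPM and Fars2 at 14.5 TPM, and Ears2 (1.06 TPM), Aars2 (1.03 TPM) and Vars2 lay at the bottom. The first 3 in the order overlapped in their single libraries.

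**Figure D1:**
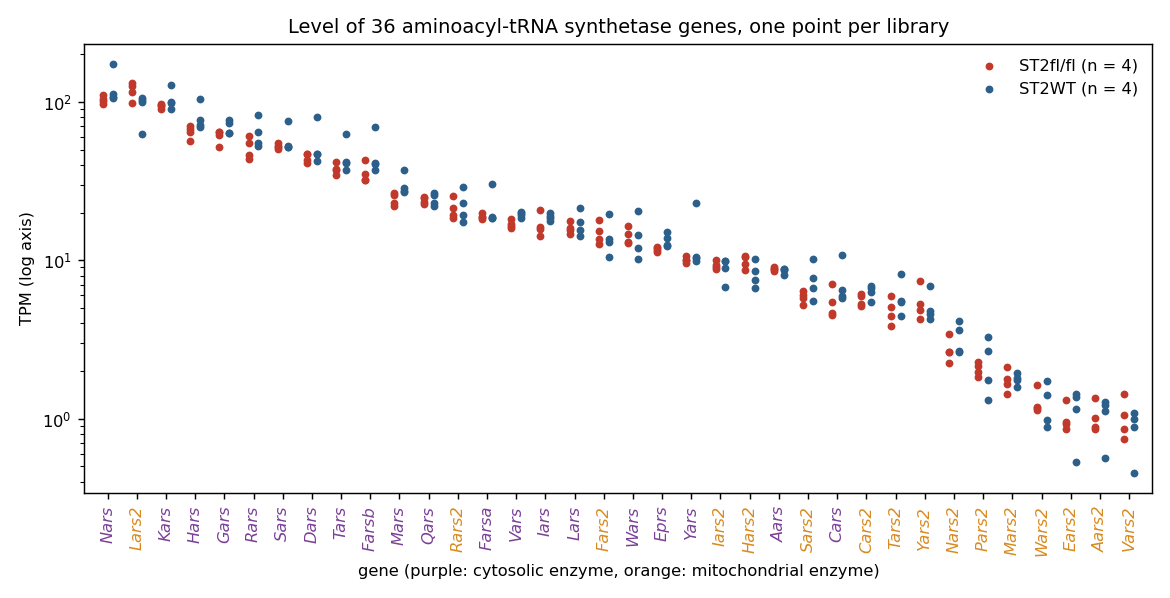
TPM (log axis) of the 36 synthetase genes in order of their mean level, with 1 point per library, ST2fl/fl in red left of ST2WT in blue, cytosolic gene names in purple and mitochondrial names in orange. The mitochondrial names gather at the right, below 22 TPM, except Lars2 at 106 TPM, and a single high ST2WT point stands above many cytosolic genes.

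No synthetase passed the threshold in limma, set at a fold change above 1.5 together with an adjusted p below 0.05. Over all 10238 genes tested, 0.518% passed (53 genes), 0.273% higher and 0.244% lower in ST2fl/fl. Of the 35 synthetases tested (Vars2, below a mean of 1 TPM, was left out), 2 had an unadjusted p under 0.05 and were lower in ST2fl/fl, Mars and Hars, which is 5.71% of all synthetases and 10% of the cytosolic ones, against 6.8% of all genes. One, Lars2, had such a p and was higher, 2.86% against 7.11% of all genes. Adjusted p ranged from 0.347 to 0.996 in limma.

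By sign alone, cytosolic synthetases lay mostly to one side. The log2 fold change of ST2fl/fl over ST2WT, on the scale of log2(TPM + 1), was below 0 for 18 of 20 cytosolic enzymes (90%), against 48.3% of all genes, with a median of -0.19 against 0.01 over all genes. The exceptions were Aars and Wars, at 0.03 and 0.04, of which Aars was at -0.015 after quantile normalization. Of the mitochondrial enzymes, 9 of 15 were below 0, with a median of -0.02. The groups did not overlap for 3 cytosolic enzymes, Mars, Vars and Eprs, all lower in ST2fl/fl, and for none in the other direction, against 4.58% and 5.45% of all genes. Within recipients, 8 cytosolic enzymes (Cars, Eprs, Farsb, Gars, Hars, Mars, Nars and Vars) were lower in the ST2fl/fl library in all 4 pairs, and 1 mitochondrial enzyme, Cars2, was too, against 14.6% of all genes. All enzymes were read in the same 8 libraries, so these counts are not independent of each other.

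Much of this shift came with the ST2WT library of recipient 2. That library held the highest of the 8 values for 16 of 20 cytosolic enzymes and 7 of 15 mitochondrial enzymes, where it was highest for 31.8% of all genes, and the lowest value for 1 cytosolic enzyme (Aars) and 2 mitochondrial enzymes (Lars2 and Iars2), against 31.7% of all genes. Cytosolic enzymes in it exceeded the mean of the other libraries by a median of 0.56 on the log2 scale, against medians of -0.18 to -0.02 in the ST2fl/fl libraries. Mitochondrial enzymes exceeded that mean by a median of 0.24 in the same library. Without it, 15 of 20 cytosolic enzymes were below 0, against 48.2% of all genes, with a median of -0.08, and 6 of 16 mitochondrial enzymes (Vars2 then reached 1 TPM) were below 0, with a median of 0.03. At an unadjusted p under 0.05 that left Vars lower, against 7.71% of all genes, and Hars2 higher, against 9.09%. Leaving out a library cannot make separated groups overlap, so Mars, Vars and Eprs stayed without overlap by construction. No other synthetase became lower without overlap, where 6.89% of all genes were.

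**Figure D2:**
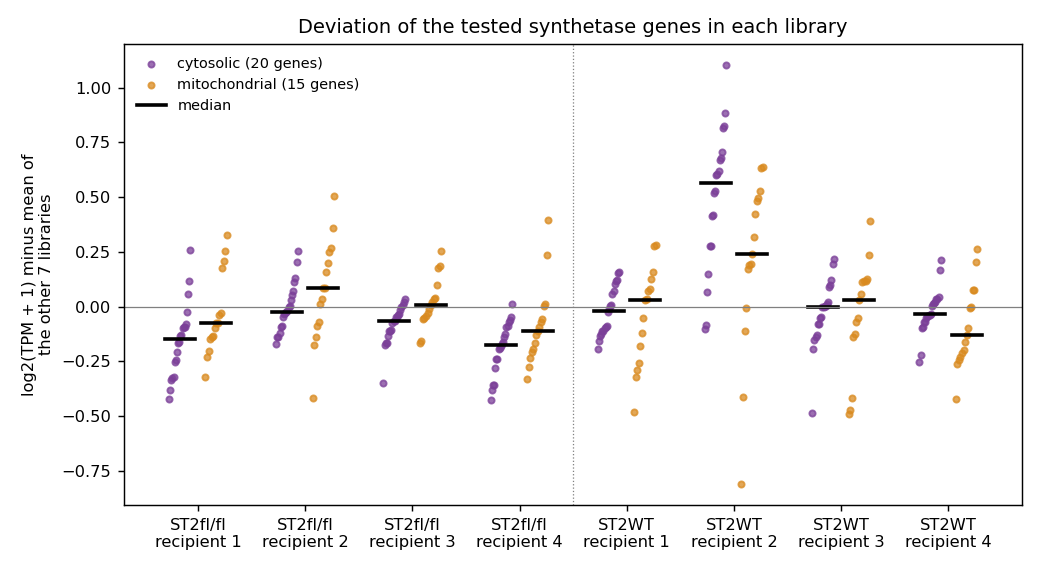
Deviation of each tested synthetase in each library from its mean in the other 7 libraries, on the log2(TPM + 1) scale, with ST2fl/fl libraries left of the dotted line and ST2WT libraries right of it, cytosolic enzymes in purple, mitochondrial enzymes in orange and medians as bars. The cytosolic median is 0.56 in ST2WT of recipient 2 and between -0.18 and 0.00 in the other 7 libraries.

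The recipients differed in the size of the shift. The median difference of ST2fl/fl minus ST2WT over cytosolic enzymes was -0.06, -0.46, -0.06 and -0.14 on the log2 scale in recipients 1, 2, 3 and 4. Over mitochondrial enzymes it was 0.07, -0.12, -0.04 and -0.01, and over all genes between -0.02 and 0.03. The cytosolic median was below the mitochondrial one in every recipient, with differences of -0.13, -0.34, -0.03 and -0.13. With the recipient as a block, which uses this pairing, 6 cytosolic enzymes were lower in ST2fl/fl at an unadjusted p under 0.05 (Cars, Farsb, Gars, Hars, Mars and Rars), which is 30% of the cytosolic enzymes and 17.1% of all synthetases, against 10.3% of all genes. Lars2 was higher (2.86% of all synthetases, against 9.94% of all genes). None passed the threshold with the block, where 0.928% of all genes did, and the smallest adjusted p was 0.101 in limma, for Lars2. The SEs and adjusted p given elsewhere for single genes are from fits that ignored the recipient. With the block the adjusted p in limma was 0.154 for Hars (SE 0.095), 0.151 for Farsb (SE 0.11) and 0.383 for Eprs (SE 0.11). Without both libraries of recipient 2, 17 of 20 cytosolic enzymes were below 0, with a median of -0.11 against 0.02 over all genes. At that unadjusted p, 6 of 20 cytosolic enzymes were then lower (30%, against 9.26% of all genes). Of 14 mitochondrial enzymes 2, Hars2 and Lars2, were higher (14.3%, against 10.8%). None was past the threshold, where 1.04% of all genes were.

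**Figure D3:**
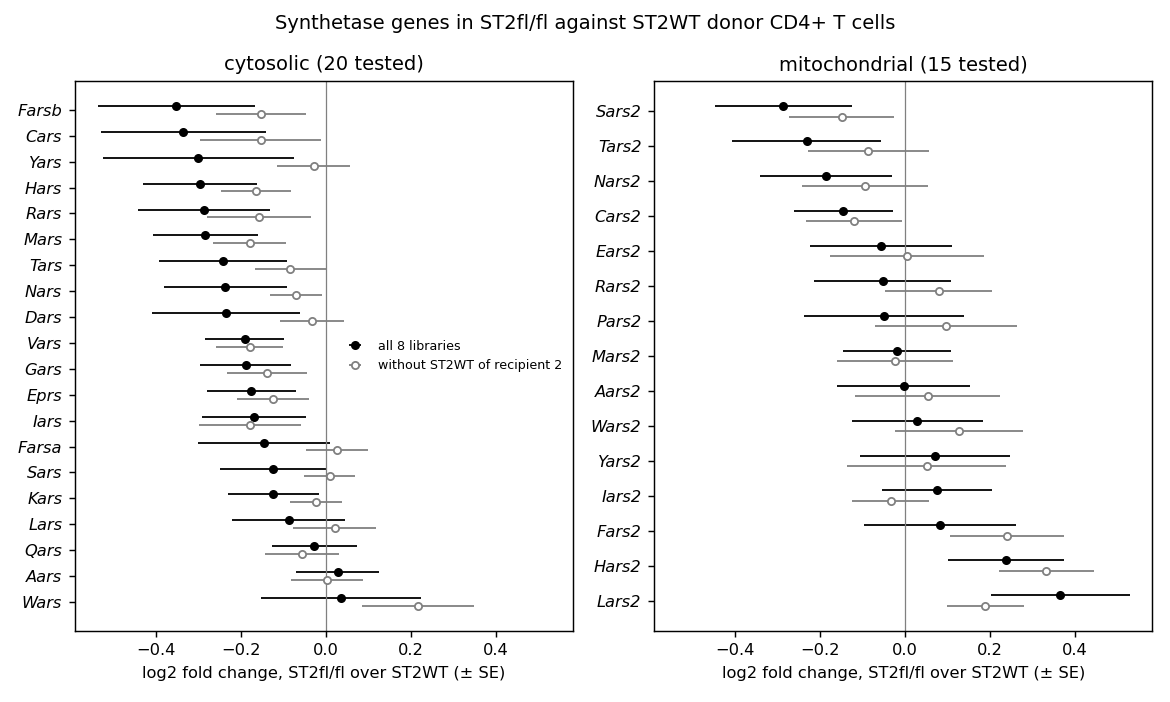
Log2 fold change of ST2fl/fl over ST2WT with its SE for the cytosolic enzymes (left) and the mitochondrial enzymes (right), from all 8 libraries (black) and without the ST2WT library of recipient 2 (open gray). With all libraries 18 of 20 cytosolic enzymes lie left of 0, most move toward 0 without that library, and Hars2 and Lars2 lie farthest to the right.

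The 8 enzymes of the multisynthetase complex were all lower in ST2fl/fl by sign, with a median log2 fold change of -0.17 (-0.09 without ST2WT of recipient 2) and none past the threshold. Mars, which charges the methionine tRNA and so also the initiator tRNA, lies on chromosome 10 of GRCm38 (127296221 to 127311786). It was at 21.9, 26.5, 25.7 and 23.1 TPM in the ST2fl/fl libraries of recipients 1 to 4, and at 28.7, 37.2, 26.8 and 27.2 TPM in the ST2WT libraries. The lowest ST2WT library was just above the highest ST2fl/fl library (exact two-sided permutation p = 0.0286, over labelings that ignore the recipient). Any gene without overlap has this p, the smallest that 4 against 4 allow, so it adds nothing to the lack of overlap. The log2 fold change of Mars was -0.28 (SE 0.12), with an adjusted p of 0.347 in limma, and -0.18 without ST2WT of recipient 2. Mars shares 68 exonic bases with Ddit3 on the other strand, so some reads of either cannot be told apart where strand is not used.

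Eprs, a double enzyme that charges both glutamate and proline tRNAs, was at 11.3, 11.6, 11.9 and 12.15 TPM in ST2fl/fl and at 13.9, 15.004, 12.6 and 12.23 TPM in ST2WT, again without overlap but by a narrow margin. Its log2 fold change was -0.18 (SE 0.10, adjusted p = 0.460 in limma). Rars, the arginyl enzyme, was at 46.3, 61.4, 55.4 and 43.5 TPM in ST2fl/fl and at 52.9, 82.3, 54.8 and 64.5 TPM in ST2WT. The groups overlapped, and in recipient 3 the ST2fl/fl library was the higher one. Its log2 fold change was -0.29 (SE 0.16, adjusted p = 0.424 in limma) and -0.16 without ST2WT of recipient 2. Kars, the lysyl enzyme, whose gene supplies both the cytosol and the mitochondrion, was at 90.7, 96.5, 96.2 and 94.5 TPM in ST2fl/fl and at 98.8, 127, 89.7 and 99.8 TPM in ST2WT, with a log2 fold change of -0.12 (SE 0.11) that was -0.02 without ST2WT of recipient 2. The other 4 enzymes of the complex had log2 fold changes of -0.23 (Dars, aspartyl), -0.17 (Iars, isoleucyl), -0.09 (Lars, leucyl) and -0.03 (Qars, glutaminyl). These were -0.03, -0.18, 0.02 and -0.06 without ST2WT of recipient 2, so that Lars changed sign. All 3 scaffold proteins were lower by sign, with a median of -0.33 that was -0.09 without ST2WT of recipient 2. For Eef1e1 the log2 fold change was -0.35, and -0.18 without that library. Eef1e1 averaged 102 ± 18.7 TPM in ST2fl/fl and 132 ± 35.6 TPM in ST2WT (SD, n = 4 each; adjusted p = 0.399 in limma).

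Among class I enzymes outside the complex, Vars, the valyl enzyme, on chromosome 17 (35000987 to 35016322), was at 17.02, 16.6, 18.1 and 16.03 TPM in ST2fl/fl and at 20.0, 20.0, 19.3 and 18.5 TPM in ST2WT. All ST2WT libraries were above all ST2fl/fl libraries, and ST2WT of recipient 2 was not the highest here. The log2 fold change was -0.19 (SE 0.09, adjusted p = 0.382 in limma) and -0.18 without that library. Cars, the cysteinyl enzyme, was at 4.52, 7.07, 5.46 and 4.66 TPM in ST2fl/fl and at 6.46, 10.7, 5.80 and 5.96 TPM in ST2WT, lower in ST2fl/fl within each recipient though the groups overlapped (log2 fold change -0.34, SE 0.19, adjusted p = 0.447 in limma). Without ST2WT of recipient 2 it was -0.15.

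Wars, the tryptophanyl enzyme, is induced by IFN-γ in human cells. It was at 16.6, 14.7, 13.0 and 12.8 TPM in ST2fl/fl and at 14.5, 20.6, 10.2 and 11.9 TPM in ST2WT, with the ST2fl/fl library higher in 3 of 4 recipients and a log2 fold change of 0.04 (SE 0.19, adjusted p = 0.940 in limma). Without ST2WT of recipient 2 its log2 fold change was 0.22 (adjusted p = 0.453 in limma). Of 16 IFN-γ-inducible genes tested, 12 were higher and 4 lower in ST2fl/fl by sign (median 0.14), where 48.3% of all genes were lower. An unadjusted p under 0.05 in limma was reached by 4, all higher (against 7.11% of all genes). The guanylate-binding protein Gbp6 rose past the threshold (against 0.273% of all genes), to 36.2 ± 3.21 TPM in ST2fl/fl against 19.3 ± 1.68 TPM in ST2WT (SD, n = 4 each; log2 fold change 0.88, adjusted p = 0.00368 in limma). The paper reported Ifng itself as higher in ST2WT cells, and Ifng was not part of this list. Yars, the tyrosyl enzyme, showed how far 1 library can carry a mean. It averaged 10.05 ± 0.412 TPM in ST2fl/fl and 13.4 ± 6.34 TPM in ST2WT (SD, n = 4 each), and its log2 fold change of -0.30 was -0.03 without ST2WT of recipient 2.

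**Figure D4:**
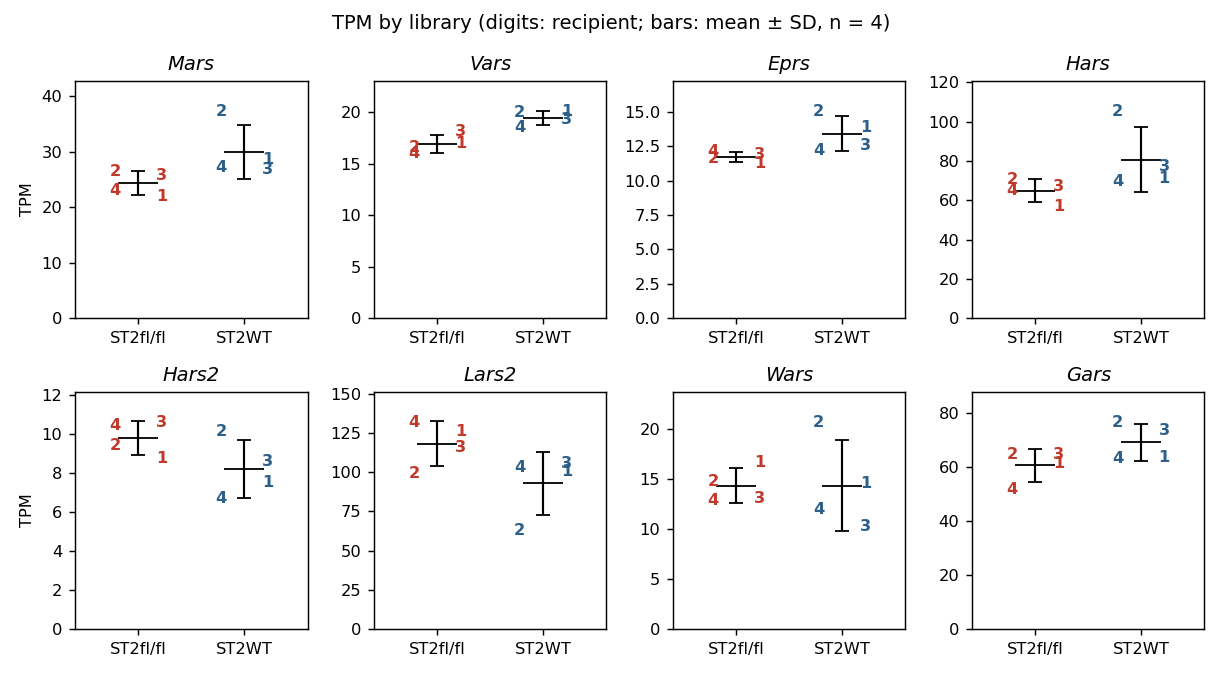
TPM of 8 synthetases by library, ST2fl/fl (red) left of ST2WT (blue), where each digit is the library of that recipient and bars are the mean ± SD (n = 4). Mars, Vars and Eprs do not overlap between the groups, and the digit 2 in blue is the highest for Mars, Eprs, Hars, Gars and Wars and the lowest for Lars2.

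Among class II enzymes outside the complex, Hars, the histidyl enzyme, was at 56.7, 70.5, 67.2 and 64.9 TPM in ST2fl/fl and at 71.2, 105, 77.3 and 69.5 TPM in ST2WT. It was lower in ST2fl/fl within each recipient, while the groups overlapped by 1 library on each side. The log2 fold change was -0.30 (SE 0.13, adjusted p = 0.359 in limma) and -0.17 without ST2WT of recipient 2. Farsb and Farsa encode the beta and alpha subunits of the phenylalanyl enzyme. Farsb was at 35.3, 43.1, 32.4 and 32.1 TPM in ST2fl/fl and at 36.9, 69.5, 40.4 and 41.3 TPM in ST2WT, lower in ST2fl/fl within each recipient (log2 fold change -0.35, SE 0.19, adjusted p = 0.413 in limma). The value was -0.15 without ST2WT of recipient 2. Farsb exceeded Farsa 1.64 to 2.36 times in ST2fl/fl libraries and 1.99 to 2.28 times in ST2WT libraries, so the ratio of the subunit transcripts overlapped between the groups.

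Nars, the asparaginyl enzyme and the highest member, was at 101, 111, 105 and 97.1 TPM in ST2fl/fl and at 106, 173, 113 and 108 TPM in ST2WT. Leaving the value of 173 TPM aside the groups overlapped, with a log2 fold change of -0.24 (SE 0.15, adjusted p = 0.477 in limma) that was -0.07 without that library. Gars, the glycyl enzyme, which supplies both compartments, lies on chromosome 6 (55038007 to 55079500). It was at 61.6, 64.6, 64.9 and 51.8 TPM in ST2fl/fl and at 63.6, 76.6, 73.8 and 63.3 TPM in ST2WT, with a log2 fold change of -0.19 (SE 0.11, adjusted p = 0.441 in limma). It was lower in ST2fl/fl within each recipient, and the groups overlapped. Tars (threonyl, -0.24), Farsa (-0.15), Sars (seryl, -0.12) and Aars (alanyl, 0.03) complete this group. Their log2 fold changes without ST2WT of recipient 2 were -0.08, 0.03, 0.01 and 0.00, so that Farsa and Sars changed sign. Aars stood out for its narrow spread, 8.80 ± 0.195 TPM in ST2fl/fl and 8.61 ± 0.335 TPM in ST2WT (SD, n = 4 each). Over all cytosolic enzymes, class I had a median of -0.18 and class II of -0.21, each with 9 of 10 enzymes below 0. The medians without ST2WT of recipient 2 were -0.14 for class I and -0.05 for class II, with 8 and 7 of 10 below 0.

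The mitochondrial enzymes did not move as a block. Lars2, on chromosome 9 (123366927 to 123462666), was at 126, 99.1, 116 and 132 TPM in ST2fl/fl and at 100.3, 62.8, 105 and 103 TPM in ST2WT. It was the 1 synthetase higher in ST2fl/fl within every recipient, though the ST2fl/fl library of recipient 2 was below 3 of the ST2WT libraries. The log2 fold change was 0.37 (SE 0.16, adjusted p = 0.353 in limma) and 0.19 without ST2WT of recipient 2, the library that also had the lowest share of transcripts encoded by the mitochondrial genome. The part of that share in the Lars2 result was not tested.

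Hars2, the mitochondrial histidyl enzyme, was at 8.73, 9.43, 10.6 and 10.4 TPM in ST2fl/fl and at 7.49, 10.1, 8.60 and 6.67 TPM in ST2WT. It was higher in ST2fl/fl in recipients 1, 3 and 4 and lower in recipient 2, with a log2 fold change of 0.24 (SE 0.14, adjusted p = 0.442 in limma). Without ST2WT of recipient 2 the groups did not overlap and the log2 fold change was 0.33 (unadjusted p = 0.0144 and adjusted p = 0.175 in limma), where 8.72% of all genes were higher without overlap. Sars2, the seryl enzyme, leaned the other way, at 5.23, 5.81, 6.44 and 5.999 TPM in ST2fl/fl and 6.71, 10.1, 7.73 and 5.53 TPM in ST2WT (log2 fold change -0.29, SE 0.16, adjusted p = 0.438 in limma), and the groups overlapped. Without ST2WT of recipient 2, its highest library, the log2 fold change was -0.15.

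The more abundant Rars2 and Fars2 overlapped widely between the groups. Rars2 was at 18.5, 25.4, 21.5 and 19.2 TPM in ST2fl/fl and at 17.5, 29.0, 23.1 and 19.3 TPM in ST2WT (log2 fold change -0.05, SE 0.16, adjusted p = 0.897 in limma). Fars2 was at 13.6, 18.0, 15.2 and 12.6 TPM in ST2fl/fl and at 10.4, 19.7, 13.6 and 13.1 TPM in ST2WT (log2 fold change 0.08, SE 0.18, adjusted p = 0.853 in limma). Leaving out ST2WT of recipient 2 gave log2 fold changes of 0.08 for Rars2, a change of sign, and 0.24 for Fars2. For both the libraries of recipient 2 were the highest of their group. Wars2, the mitochondrial tryptophanyl enzyme, was near the low limit, at 1.62, 1.13, 1.19 and 1.17 TPM in ST2fl/fl and 0.885, 1.73, 1.41 and 0.974 TPM in ST2WT (log2 fold change 0.03, SE 0.15, adjusted p = 0.942 in limma), and its log2 fold change was 0.13 without ST2WT of recipient 2.

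The other mitochondrial enzymes had log2 fold changes between -0.23 (Tars2) and 0.07 (Iars2 and Yars2), with Nars2 at -0.19, Cars2 at -0.15, Ears2 at -0.06, Pars2 at -0.05, Mars2 at -0.02 and Aars2 at -0.00. When ST2WT of recipient 2 was left out they lay between -0.12 (Cars2) and 0.10 (Pars2), with Tars2 and Nars2 at -0.09, Iars2 at -0.03, Mars2 at -0.02, Ears2 at 0.00 and Aars2 and Yars2 at 0.05. Vars2, not tested, averaged 1.02 ± 0.297 TPM in ST2fl/fl and 0.855 ± 0.277 TPM in ST2WT (SD, n = 4 each).

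Setting the compartments side by side, 13 amino acids have a cytosolic and a mitochondrial enzyme among the members that are each the product of 1 gene. Phenylalanine, whose cytosolic enzyme has the subunits Farsa and Farsb, was left out of these pairs. The cytosolic transcript was the higher one in all 8 libraries for 11 of them, by a median of 8.08 times over the 13 pairs and by up to 38.1 times for asparagine. For cysteine the pair was nearly even, with a ratio of means of 1.06. For leucine the order was turned round in all 8 libraries, with Lars at 0.157 times Lars2. The cytosolic to mitochondrial ratio overlapped between the groups in every pair but 1. For histidine, Hars was 6.22 to 7.47 times Hars2 in ST2fl/fl libraries and 8.98 to 10.4 times Hars2 in ST2WT libraries. This pair was named after its values were seen and carries no test. Hars and Hars2 lie head to head on chromosome 18 and share 195 exonic bases on opposite strands, so their reads there cannot be told apart where strand is not used.

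The summed level of the 20 cytosolic enzymes was 688, 763, 727 and 672 TPM in the ST2fl/fl libraries of recipients 1 to 4 and 742, 1079, 760 and 760 TPM in the ST2WT libraries. The means were 713 ± 40.6 TPM in ST2fl/fl and 835 ± 163 TPM in ST2WT (SD, n = 4 each), and the ST2WT mean was 754 ± 9.98 TPM (SD, n = 3) without recipient 2. In recipients 1, 3 and 4 the ST2fl/fl sum was below its ST2WT partner by far less than in recipient 2. The 16 mitochondrial enzymes summed to 208, 196.4, 206 and 213 TPM in ST2fl/fl and to 180, 172, 195.5 and 184 TPM in ST2WT, which left the groups just apart, with means of 206 ± 7.04 TPM in ST2fl/fl and 183 ± 9.66 TPM in ST2WT (SD, n = 4 each). Lars2 made up 50.5% to 61.8% of this sum in ST2fl/fl and 36.5% to 56.3% in ST2WT, and without it the sums were 87.7 ± 7.46 TPM in ST2fl/fl and 89.9 ± 13.8 TPM in ST2WT (SD, n = 4 each). The cytosolic sum was 3.16 to 3.88 times the mitochondrial sum in ST2fl/fl libraries and 3.89 to 6.27 times in ST2WT libraries. With Lars2 left out the ratio was 7.84 to 8.36 in ST2fl/fl and 8.44 to 9.87 in ST2WT. In neither case did the groups overlap, but the margins were narrow. With Lars2 the nearest libraries were at 3.884 in ST2fl/fl and 3.886 in ST2WT. These sums and ratios are descriptions over genes chosen with results known and were not tested.

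Of the synthetases known as Atf4 targets, 11 of 13 were below 0 with a median of -0.19, and of the other cytosolic enzymes 7 of 7 were below 0 with a median of -0.23. Without ST2WT of recipient 2 the order of these medians turned round, at -0.08 (9 of 13 below 0) for the Atf4 targets and -0.06 (6 of 7) for the others. Atf4 itself averaged 61.3 ± 4.48 TPM in ST2fl/fl and 57.5 ± 0.646 TPM in ST2WT (SD, n = 4 each). Of 19 other genes of the integrated stress response tested, none passed the threshold, 5 were lower and 2 higher in ST2fl/fl at an unadjusted p under 0.05 (against 6.8% and 7.11% of all genes), and 12 were below 0 (against 48.3%). Their median was -0.09, and without ST2WT of recipient 2 it was -0.03 with 10 below 0. Asns, which makes asparagine, averaged 2.35 ± 0.905 TPM in ST2fl/fl and 5.75 ± 3.14 TPM in ST2WT (SD, n = 4 each; log2 fold change -0.96, adjusted p = 0.196 in limma). The log2 fold change of Asns was -0.67 without ST2WT of recipient 2. Shmt2, a mitochondrial enzyme of serine metabolism, was at 13.2, 17.8, 18.9 and 16.4 TPM in ST2fl/fl and at 21.1, 42.6, 21.4 and 20.3 TPM in ST2WT, with no overlap (adjusted p = 0.287 in limma). Its log2 fold change was -0.58, and -0.33 without ST2WT of recipient 2. Eif4ebp1, a repressor of translation initiation, averaged 12.5 ± 0.472 TPM in ST2fl/fl and 15.7 ± 1.37 TPM in ST2WT (SD, n = 4 each; adjusted p = 0.234 in limma). Ddit3, the stress factor CHOP and the neighbor of Mars, went the other way, at 28.6 ± 2.65 TPM in ST2fl/fl and 19.7 ± 2.17 TPM in ST2WT (SD, n = 4 each; log2 fold change 0.52, adjusted p = 0.0781 in limma).

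Genes that make tRNAs ready for the synthetases were described from a list of 21 tested. None passed the threshold, 19 were below 0 with a median of -0.16 (-0.10 without ST2WT of recipient 2), and 4 had an unadjusted p under 0.05, all lower in ST2fl/fl (4 of 21, against 6.8% of all genes). These were Pop4 and Rpp30, subunits of the RNase P and MRP enzymes that trim tRNA and rRNA precursors, Tsen34 of the splicing endonuclease, and Trnt1, which adds the CCA tail that takes up the amino acid. Pop4 was at 29.3, 37.6, 30.3 and 32.8 TPM in ST2fl/fl and at 40.6, 48.1, 38.8 and 40.2 TPM in ST2WT, with all ST2WT libraries above all ST2fl/fl libraries (log2 fold change -0.36, SE 0.11, adjusted p = 0.203 in limma). Of 13 partners of mitochondrial aminoacyl-tRNA, none passed and 9 were below 0 (median -0.17), with Tsfm, a mitochondrial elongation factor, at 16.7 ± 1.84 TPM in ST2fl/fl and 24.3 ± 7.75 TPM in ST2WT (SD, n = 4 each; adjusted p = 0.284 in limma). The log2 fold change of Tsfm was -0.48, and -0.29 without ST2WT of recipient 2. Of 5 editing genes, none passed and 4 were below 0. Among 5 genes that sense or deliver charged tRNA none passed, and Eef1a1, the factor that carries charged tRNA to the ribosome, averaged 3489 ± 74.0 TPM in ST2fl/fl and 3230 ± 90.4 TPM in ST2WT (SD, n = 4 each; log2 fold change 0.11, adjusted p = 0.313 in limma).

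Promoter windows were read for the letters of the C/EBP-ATF response element, a site through which Atf4 is known to act. The core searched was TGATGNAA on both strands, in windows of 300 bases that run from 250 bases before to 50 after each start in RefSeq on GRCm38.p6. A window was given for 27 of the 36 members, 13 of the 20 cytosolic and 14 of the 16 mitochondrial enzymes. The core was held by 5 of 13 cytosolic enzymes (38.5%: Aars, Gars, Iars, Tars and Yars) and by 0 of 14 mitochondrial enzymes, against 3.97% of all 32851 windows. Members were counted by gene and the background by window, so these shares are not in the same unit. The sequences below show that core in capitals, written on the strand of the gene 5′ to 3′, with the bases that end just before the RefSeq start for Gars and just before the GENCODE start for Tars, and short stretches around the core for the others.
Gars, chr6:55037751-55038000, plus strand: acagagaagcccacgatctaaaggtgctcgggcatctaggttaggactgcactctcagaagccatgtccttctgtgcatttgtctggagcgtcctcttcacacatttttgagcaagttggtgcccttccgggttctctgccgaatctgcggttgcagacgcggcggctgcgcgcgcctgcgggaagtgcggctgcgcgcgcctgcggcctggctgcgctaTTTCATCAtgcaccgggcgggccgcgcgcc
Tars, chr15:11399666-11399908, minus strand: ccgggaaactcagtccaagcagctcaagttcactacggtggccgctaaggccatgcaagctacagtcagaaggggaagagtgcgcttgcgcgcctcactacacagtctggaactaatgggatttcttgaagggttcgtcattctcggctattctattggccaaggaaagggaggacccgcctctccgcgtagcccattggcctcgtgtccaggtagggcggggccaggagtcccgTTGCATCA
Yars, chr4:129189895-129189924, plus strand: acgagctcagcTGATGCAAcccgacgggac
Iars, chr13:49682126-49682155, plus strand: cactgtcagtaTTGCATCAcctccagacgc
Aars, chr8:111033840-111033869, plus strand: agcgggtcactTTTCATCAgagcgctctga
Counted from the RefSeq start, the core began 30 bases before it in Gars and 15 bases before it in Tars. In Yars it began 3 bases, in Iars 7 bases and in the stretch shown for Aars 9 bases past the RefSeq start. With all libraries, the log2 fold changes of these 5 genes were -0.19 (Gars), -0.24 (Tars), 0.03 (Aars), -0.30 (Yars) and -0.17 (Iars), within the range of the other cytosolic enzymes. A match of letters is a description and not evidence of binding.

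Some members share bases with other genes in GENCODE M21, and strand use in the counting is not given in the sources used here. Besides Mars and Hars, the members Aars, Cars, Farsb, Yars, Cars2, Ears2, Fars2, Iars2, Nars2 and Vars2 share exonic bases with a neighbor, 2034 bases with Rab3gap2 in Iars2 and 1326 bases with Exosc6 on the same strand in Aars. Iars has a pseudogene copy, Gm4849, that matches it over 1656 bases at 96.0% identity and has no entry in the table. Levels of these members are uncertain to that extent.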

How the data were processed

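RNA-Seq was analyzed from 8 libraries, 4 ST2fl/fl and 4 ST2WT. The authors sorted donor CD4+ T cells into SmartSeq lysis buffer, made Nextera XT libraries, and processed the reads in CLC Genomics Workbench 20.0.3 on GRCm38.p6. The deposited values are TPM, made by the authors for each library, and none of the 12417 entries is 0 in any library. Depth per library cannot be recovered, so no interval for counting error is given. Libraries from syngeneic recipients were not analysed here.

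After removal of 2179 genes averaging below 1 TPM, 10238 were compared on log2(TPM + 1) with limma 3.58.1 in R 4.3.3, with moderated variances that follow expression. This fit ignored the recipient, and SEs and p-values in limma ignore it wherever no block is named. The threshold was the study's own, a fold change above 1.5 and an adjusted p (Benjamini-Hochberg, over all genes tested) below 0.05. Exact permutation tests used all 70 labelings and ignored the recipient. P-values measure the spread between these libraries.

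The members, gene lists and tests were chosen with earlier results of these data known. Full values are given for the 12 members of smallest p, the 3 highest of each compartment, Wars and Wars2, and genes outside the members are named only past the threshold or among up to 4 of smallest p in a list. Tars, Iars, Yars and Aars are shown for the motif, and Atf4, Vars2 and the histidine pair are given by name, chosen after their values were seen. Libraries of 1 number were taken to share a recipient, since the design transfers both populations together. Same-numbered libraries deviated together (correlations 0.195, 0.352, 0.118 and 0.163 over genes, against -0.283 to 0.109 between numbers). The alternatives were other pseudocounts, filters, scalings and variance models, array weights, the recipient block and leaving out each library or recipient. Pseudogene copies were searched with BLAST 2.17.0 (at least 95% identity over 300 bases), and figures drawn with matplotlib 3.10.9. The fit was tested on simulated data. Results of some single genes and sequences are not reported here.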

Additional observations from a re-analysis of the deposited data

Results flagged for a closer look

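In 10 cases an ST2WT value of recipient 2 lay farther from the other ST2WT libraries than a Dixon test at the 95% level allows for 4 values. It was high for Cars (10.7 TPM), Dars (79.9 TPM), Farsa (30.5 TPM), Farsb (69.5 TPM), Nars (173 TPM), Sars (75.7 TPM) and Yars (22.9 TPM), and so was the cytosolic sum, at 1079 TPM. It was low for Aars (8.11 TPM) and Lars2 (62.8 TPM). In ST2fl/fl, the library of recipient 1 was high for Wars2, at 1.62 TPM. Of 76 groups tested, 11 were flagged in this way, where chance flags about 1 in 20. The genes of 1 library are not independent, and what sets the ST2WT library of recipient 2 apart was not tested.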

How the results depend on the processing

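The count of synthetases past the threshold was 0 in limma with all libraries and under all 22 alternatives run on it. The count lower in ST2fl/fl at an unadjusted p under 0.05, 2 with all libraries, was 1 with a pseudocount of 0.1, with a mean of at least 5 TPM or with no variance trend. It was 3 with quantile normalization or array weights, 6 with the recipient as a block (the pairing by recipient), and 0 to 6 with libraries or recipients left out. The count higher at that p, 1 with all libraries, was 0 with a mean of at least 5 TPM, median ratio scaling, quantile normalization or no variance trend, 2 with array weights, and 0 to 2 with libraries left out. The number without overlap was 3 to 8 lower (8 without the ST2fl/fl library of recipient 2 or without recipient 2) and 0 to 3 higher (3 without recipient 2). Groups of fewer libraries separate more often. Without ST2WT of recipient 2 alone, the share of all genes went from 4.58% to 6.89% lower and from 5.45% to 8.72% higher. That share was not worked out for the other left-out libraries, so those counts have no background. The mitochondrial median was 0.071 with a mean of at least 5 TPM. Leaving out transcripts of the mitochondrial genome rescaled the mean sums to 823 TPM (cytosolic, ST2fl/fl), 238 TPM (mitochondrial, ST2fl/fl) and 209 TPM (mitochondrial, ST2WT), and leaving out Lars2, chosen after seeing the data, gave 87.7 TPM in ST2fl/fl and 89.9 TPM in ST2WT for the mitochondrial sum. Fold changes near 0 changed sign, with Aars at -0.015 after quantile normalization and Rars2 at 0.048 with array weights. With libraries left out the ranges were -0.0082 to 0.047 (Aars), -0.16 to 0.079 (Rars2), -0.10 to 0.22 (Wars), -0.12 to 0.16 (Wars2) and -0.046 to 0.24 (Fars2). The block changed no call at the threshold. Except where the construction shows it, the cause was not tested.

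The SEs of the synthetases were 0.09 to 0.22 on the log2 scale with 4 libraries a group, and a p that misses the threshold does not show that levels were alike. TPM hold no depth, so counting error is unknown. The ST2WT library of recipient 2, highest for 16 cytosolic enzymes, moved their median to -0.19, against -0.08 without it. Without both libraries of recipient 2 the median was -0.11. The smallest adjusted p of any named synthetase, over all alternatives, was 0.0562 in limma (Lars2 without recipient 2).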
